A study of Mus musculus with 38 samples.

Results

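The wide regions are 6076 stretches of open chromatin that carried a peak in each of 9 ATAC-seq libraries of Tcf21 lineage cells from mouse visceral adipose tissue and spanned at least 5000 bp. They were obtained by merging the peaks of the 9 deposited peak lists on chromosomes 1 to 19, X and Y wherever peaks overlapped by 1 bp or more. The merging gave 123130 union regions, of which 35747 had a peak in every list. The wide regions were 4.94% of all union regions and 17.0% of those open in every list, and the remaining 29671 regions open in every list are called narrower here. The members were chosen by width and presence in the lists, so the width, coverage and peak strength of the regions are given as description. The RNA values of genes at the regions played no part in the rule.

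Tcf21 lineage cells are mesenchymal progenitors marked by a tamoxifen-inducible Cre (MerCreMer). Tamoxifen was given at 75 mg/kg per day to adults or at 100 µg per day to neonates, and the age at dosing of each group is not stated in the labels. The ATAC-seq groups were Tcf21 knockout mice of 3 weeks of age on regular diet (KO 3W, 2 libraries), wild-type mice of 3 weeks on regular diet (WT 3W, 3 libraries), and wild-type mice after 1 week (WT 1W HFD, 2 libraries) or 12 weeks (WT 12W HFD, 2 libraries) of a high-fat diet begun at 6 weeks of age. The matching RNA-seq groups held 5 KO 3W, 7 WT 3W, 4 WT 1W HFD and 5 WT 12W HFD libraries. The RNA tables also held 2 libraries each of wild-type mice at postnatal day 12 and at 6 months of age, on regular diet. A further 2 libraries each came from mice titled KO after 1 and after 12 weeks of the high-fat diet. These groups stood on neither side of a comparison but are among the 29 RNA libraries over which the spread was estimated. Each library came from 5000 sorted cells, and whether replicates were separate animals is not given. The groups follow the sample titles. The genotype field differed from the title in 22 of 38 samples, among them every KO library and every WT 1W HFD RNA library. The rest of the 22 carry WT titles too, so the genotype in the diet comparisons also rests on the titles. Mice on the high-fat diet were older than 3 weeks, and those on it for 12 weeks older than those on it for 1 week, so diet and age cannot be told apart in any diet comparison. The titles of most 3-week libraries also name pairs of KO and WT libraries.

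Chromatin at promoters and enhancers is open to Tn5 transposase, which cuts and tags it in ATAC-seq, and most such sites are short. Long stretches of adjoining open sites occur where many regulatory elements lie close together, as at strongly transcribed genes, at genes induced quickly by stimuli and at genes that set cell identity. In adipose progenitors, Tcf21 is a basic helix-loop-helix factor of the visceral mesenchyme, Pdgfra is a receptor that marks the cells, and Hox genes record body position. Pdgfra itself was detected in all 29 RNA libraries, between 63.9 and 188 TPM (transcript abundance scaled within each library), and its start lay in a wide region. Dcn, a fibroblast proteoglycan gene, was at 10335 to 25139 TPM, and Thy1, a mesenchymal surface marker, at 1.37 to 189.8 TPM.

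The sequences below stand at starts of genes to which the results return. Each is the 300-base RefSeq promoter window (GRCm38.p6, the mm10 assembly), from 250 bases before the annotated start to 50 bases after it, written along the gene's own strand. Capitals mark matches on either strand to AP-1 (TGANTCA), an E-box (CAGCTG), a GC box (GGGCGG), C/EBP (TTGCGCAA) or a CCAAT box (CCAAT). Matches of different motifs may share end letters. The windows lay at chr4:155222486-155222785 on the minus strand, chr12:85473640-85473939 on the plus strand, chr1:170174915-170175214 on the minus strand, chr11:49793905-49794204 on the plus strand, chr6:52204538-52204837 on the minus strand, chr10:22820094-22820393 on the minus strand and chr1:45311288-45311587 on the plus strand.
Ski: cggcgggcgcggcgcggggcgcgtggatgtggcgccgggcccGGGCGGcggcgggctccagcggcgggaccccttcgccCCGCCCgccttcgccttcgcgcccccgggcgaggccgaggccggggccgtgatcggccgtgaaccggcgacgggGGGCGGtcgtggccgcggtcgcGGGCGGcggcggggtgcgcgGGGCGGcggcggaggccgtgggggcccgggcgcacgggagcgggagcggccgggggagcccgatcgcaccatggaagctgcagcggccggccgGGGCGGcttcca
Fos: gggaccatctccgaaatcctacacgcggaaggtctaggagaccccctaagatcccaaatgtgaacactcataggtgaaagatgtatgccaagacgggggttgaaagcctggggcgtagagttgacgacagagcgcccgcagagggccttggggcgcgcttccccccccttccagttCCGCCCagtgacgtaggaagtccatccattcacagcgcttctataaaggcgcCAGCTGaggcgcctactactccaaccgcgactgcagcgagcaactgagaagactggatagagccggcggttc
Uap1: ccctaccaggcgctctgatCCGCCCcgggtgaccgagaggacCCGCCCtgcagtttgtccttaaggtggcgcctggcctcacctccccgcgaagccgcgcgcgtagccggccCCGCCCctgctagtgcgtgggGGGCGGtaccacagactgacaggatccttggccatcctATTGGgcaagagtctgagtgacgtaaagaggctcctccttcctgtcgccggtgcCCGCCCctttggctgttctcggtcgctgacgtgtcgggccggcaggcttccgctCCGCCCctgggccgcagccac
Gfpt2: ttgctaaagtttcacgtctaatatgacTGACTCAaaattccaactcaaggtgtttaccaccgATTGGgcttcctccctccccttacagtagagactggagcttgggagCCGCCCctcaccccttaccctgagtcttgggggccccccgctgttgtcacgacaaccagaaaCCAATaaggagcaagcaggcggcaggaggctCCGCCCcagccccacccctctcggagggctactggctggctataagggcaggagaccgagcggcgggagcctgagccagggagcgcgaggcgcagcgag
Hoxa5: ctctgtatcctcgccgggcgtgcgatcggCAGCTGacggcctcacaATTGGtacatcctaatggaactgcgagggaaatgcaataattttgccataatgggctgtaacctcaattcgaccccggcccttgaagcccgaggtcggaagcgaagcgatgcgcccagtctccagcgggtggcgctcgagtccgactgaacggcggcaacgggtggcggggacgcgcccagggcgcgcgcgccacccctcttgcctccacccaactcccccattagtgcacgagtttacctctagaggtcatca
Tcf21: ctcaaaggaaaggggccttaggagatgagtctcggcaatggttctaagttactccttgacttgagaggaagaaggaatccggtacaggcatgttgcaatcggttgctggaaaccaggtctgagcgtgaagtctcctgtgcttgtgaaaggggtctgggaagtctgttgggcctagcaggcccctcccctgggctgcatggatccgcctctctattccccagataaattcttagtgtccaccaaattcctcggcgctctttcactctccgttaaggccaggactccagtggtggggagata
Col3a1: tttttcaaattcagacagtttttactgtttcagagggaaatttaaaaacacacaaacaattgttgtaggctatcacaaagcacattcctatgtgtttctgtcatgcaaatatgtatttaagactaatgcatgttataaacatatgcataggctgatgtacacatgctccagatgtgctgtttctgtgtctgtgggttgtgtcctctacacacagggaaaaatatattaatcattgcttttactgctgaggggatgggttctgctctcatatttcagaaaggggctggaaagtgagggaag
The window of Ski, a co-repressor of SMAD signalling at the widest region, was 85.3% G and C and held 6 GC boxes. The window of Fos, an immediate early AP-1 subunit, held 1 GC box and 1 E-box. Uap1, which makes UDP-N-acetylglucosamine at the end of the hexosamine pathway, had 6 GC boxes and 1 CCAAT box. Gfpt2, which catalyses the first step of that pathway, had 1 AP-1 match, 2 GC boxes and 2 CCAAT boxes. Hoxa5 had 1 E-box and 1 CCAAT box. The windows of Tcf21 and of Col3a1, a fibrillar collagen gene, held none of these motifs, and that of Col3a1 was 37.7% G and C with 0 CpG.

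Over the 4432 promoter windows inside wide regions, a GC box was found in 64.2%, against 61.0% of the 11229 windows in narrower regions and 11.6% of the 17156 windows outside regions open in every list. Of all 32817 windows 35.6% held one. The AP-1 letters were found in 5.96% of windows in wide regions, 4.79% of those in narrower regions and 10.3% of those outside, against 7.81% of all windows. The E-box share was 16.6% in wide regions and 16.3% of all windows, and the CCAAT share was 34.7% in wide regions and 37.4% of all windows. The C/EBP letters were rare, in 0.34% of windows in wide regions and 0.18% of all. Windows in regions of at least 20000 bp held the AP-1 letters in 7.90% of 443 cases. By letters in the promoter window, wide regions were therefore close to narrower ones, and both were richer in GC boxes than promoters elsewhere.

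Wide regions also held miRNA genes. Of 1005 hairpins in the RefSeq table, 155 lay in 118 wide regions, a density of 2.91 per Mb of wide region, and 99 lay in 94 narrower regions, a density of 1.22 per Mb. The 269 mature miRNAs of the wide regions included 14 seeds that at least 2 different miRNAs shared. The sequences below show the shared seeds of the let-7, miR-125, miR-29 and miR-196 families, then miR-199a-3p, the miR-23a, miR-27a and miR-24 cluster and 4 miRNAs of the imprinted Rtl1 region, with the seed (bases 2 to 8) in capitals.
let-7a-5p: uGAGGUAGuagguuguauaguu
let-7b-5p: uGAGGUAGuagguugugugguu
let-7c-5p: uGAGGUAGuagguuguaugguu
let-7e-5p: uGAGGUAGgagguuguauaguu
let-7i-5p: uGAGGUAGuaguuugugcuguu
miR-125a-5p: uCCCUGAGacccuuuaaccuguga
miR-125b-5p: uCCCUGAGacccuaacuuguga
miR-29a-3p: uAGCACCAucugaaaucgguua
miR-29b-3p: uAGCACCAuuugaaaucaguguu
miR-196a-5p: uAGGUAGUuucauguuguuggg
miR-196b-5p: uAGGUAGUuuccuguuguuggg
miR-199a-3p: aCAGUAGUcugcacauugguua
miR-23a-3p: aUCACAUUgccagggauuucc
miR-27a-3p: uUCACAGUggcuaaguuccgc
miR-24-3p: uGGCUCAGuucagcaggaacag
miR-127-3p: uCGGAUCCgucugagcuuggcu
miR-431-5p: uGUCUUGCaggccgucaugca
miR-433-3p: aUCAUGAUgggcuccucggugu
miR-434-3p: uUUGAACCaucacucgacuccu
The 5 let-7 miRNAs shared the seed GAGGUAG and came from 4 wide regions. Let-7b and let-7c-2 lay together at chr15:85697084-85714361, and let-7e lay with miR-125a and Has1, a hyaluronan synthase, at chr17:17823190-17858953. The let-7a-1 hairpin lay across the edge of its region at chr13:48538258-48549936. The pair miR-29a and miR-29b-1 lay at chr6:31045948-31063684. The miR-29 family is known to target collagen mRNAs. The miR-23a, miR-27a and miR-24-2 cluster lay in a 43351-bp region at chr8:84195567-84238917, beside Zswim4. The miR-196 genes lay between Hox genes, miR-196a-2 in the region of Hoxc9 and Hoxc10 and miR-196b in that of Hoxa9 and Hoxa10. The miR-199a-2, miR-199a-1 and miR-199b genes lay in regions of Dnm3, Dnm2 and Dnm1, and the 3p sequence has the same letters in each. Levels of mature miRNAs are not analysed here.

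The wide regions covered 53.3 Mb, with a median width of 6761 bp and a highest decile above 13965 bp. At least 10000 bp were reached by 1281 of them (21.1%), at least 20000 bp by 286 and at least 50000 bp by 17. Narrower regions had a median width of 2586 bp. The widths fell off smoothly through the 5000-bp limit. Just above it were the regions at Osgin1 and Necab2 (5000 bp), Rdx (5000 bp) and Rab18 (5001 bp), and just below it 3 regions of 4999 bp, of which 1 lay at Fbxo30 and 2 at no gene of the tables. Just inside, the Rdx and Rab18 regions had strongest-peak folds between 47.1 and 153, and the Osgin1 and Necab2 region between 2.58 and 15.11. Just outside, the Fbxo30 region had folds between 38.7 and 110.2, and the 2 regions at no gene between 4.33 and 19.01. Strong and weak regions thus lay on both sides of the limit.

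**Figure D1:**
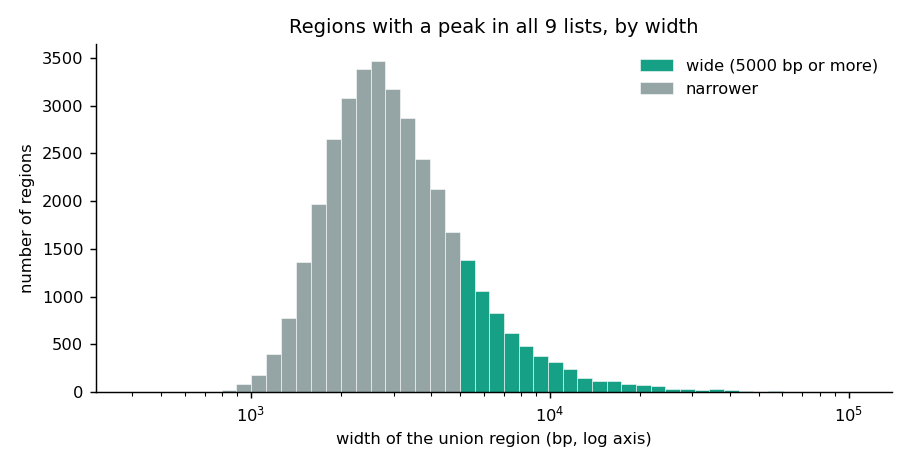
Number of regions with a peak in all 9 lists (vertical axis) by width of the union region in bp (horizontal log axis), wide regions in green and narrower ones in grey. The 5000-bp limit cuts the falling right side of a single hump, and 1281 wide regions reach 10000 bp.

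Width arose in part from joining peaks of different libraries. A member held a mean of 17.6 peaks over the 9 lists. Of the 6076 regions, 363 had a single peak of at least 5000 bp in all 9 lists, 950 had one in no list and 1744 had one in exactly 1 list. The bases under a peak in all 9 lists came to 36.2% of the total, with a median of 2516 bp per region. At least 5000 bp were shared by all 9 lists in 792 regions, and 164 regions had no base that all 9 lists shared.

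The lists filled the regions to different degrees. Peaks covered 77.0 and 60.3% of wide-region bases in the KO 3W libraries, against 63.8, 57.2 and 48.8% in the WT 3W libraries. Coverage was 91.2 and 77.5% in WT 1W HFD libraries and 65.5 and 71.9% in WT 12W HFD libraries. The first WT 1W HFD list stood apart, with a single peak of at least 5000 bp in 4358 of the wide regions (71.7%) and the widest peak of the region in 3547 (58.4%). In the other 8 lists such a single peak was found in 560 to 2592 regions. Without that list, 5020 regions met the rule, and 4912 of the 6076 (80.8%) overlapped one of them. Leaving out any other list left between 5756 and 6145 regions. The peak names carry a letter B in KO 3W replicate 2 and in WT 3W replicates 2 and 3, and A in the others. The titles of the 3-week lists name 2 pairs, in which the KO 3W list covered 77.0% and the WT 3W list 63.8% in pair 1, and the KO 3W list 60.3% and the WT 3W list 48.8% in pair 2. Within letter A the KO 3W list covered 77.0% and the WT 3W list 63.8%, and within letter B the KO 3W list covered 60.3% and the WT 3W lists 57.2 and 48.8%. What the letters stand for is not given, and the reads behind each list are not used here, so depth is unknown and its part in the coverage was not tested.

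**Figure D2:**
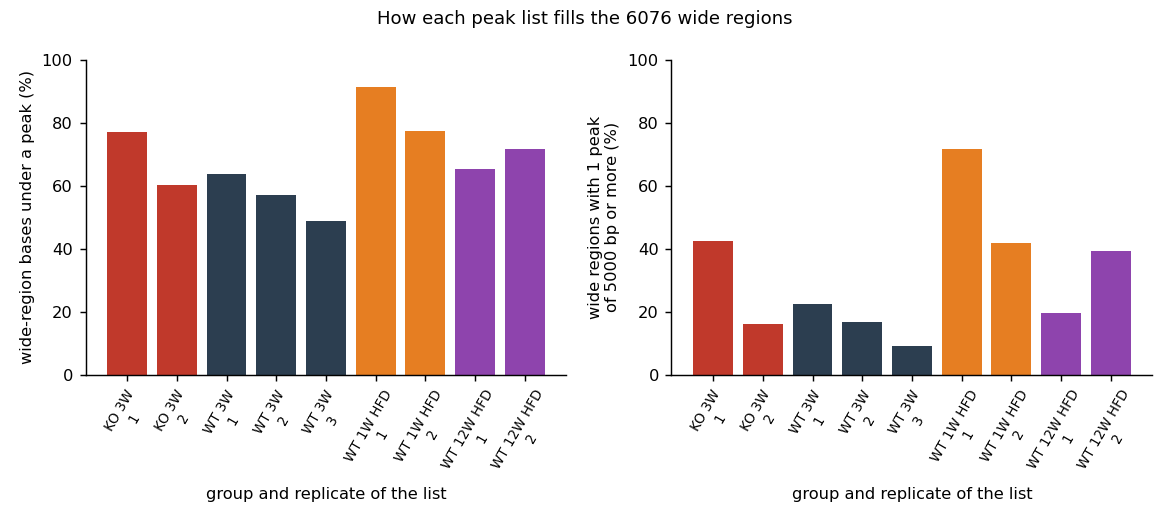
Share of wide-region bases under a peak (left, %) and share of the 6076 wide regions with a single peak of at least 5000 bp (right, %), 1 bar per peak list, by group and replicate. The first WT 1W HFD list is the highest in both panels, at 91.2% and 71.7%.

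The strongest peaks of wide regions also had higher folds than those of narrower ones. The fold of a peak is the authors' own value. For each region the strongest peak of each list was taken and the median over the 9 lists computed. This gave a median of 32.1 over wide regions and 14.8 over narrower ones. A wide region held a mean of 17.6 peaks over the lists and a narrower one 9.53, so the strongest was taken from more peaks and bases. A single member had folds of at least 200 in every list. It lay at chr17:39842987-39848844, overlapped the ribosomal RNA sequences Rn18s-rs5 and AY036118 in RefSeq and no gene of the RNA tables, and had a median fold of 944. Ribosomal RNA genes are present in many genomic copies. The next highest by their weakest list were the regions of Nr1d2, a circadian nuclear receptor (lowest fold 106), Hjurp (102) and Hnrnpk, an RNA-binding protein (101).

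The widest region of all spanned 105153 bp at chr4:155119657-155224809, over Ski and part of Morn1. Its peaks covered 102486 and 92887 bp in KO 3W libraries and 103053, 92322 and 91776 bp in WT 3W libraries. Coverage was 100669 and 100767 bp in WT 1W HFD libraries and 85960 and 75939 bp in WT 12W HFD libraries. All 9 lists shared 61910 bp of it, the most of any member. Ski had 12.4, 34.2, 27.3, 20.4 and 28.4 TPM in KO 3W libraries, and in WT 3W libraries a lowest value of 18.7, a median of 22.5 and a highest value of 34.5 TPM. It averaged 31.3 ± 6.03 TPM in WT 1W HFD libraries (SD, n = 4) and 18.4 ± 4.03 TPM in WT 12W HFD libraries (SD, n = 5). The WT 3W median of all genes whose widest region spans at least 20000 bp was 27.9 TPM.

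Among the 15 widest members, several lay at genes with roles in signalling and transcription. Plpp3, a phosphatase that degrades lysophosphatidic acid at the cell surface, had a 75636-bp region at chr4:105156467-105232102. Nfatc1, a calcineurin-dependent transcription factor, had one of 71396 bp on chromosome 18. The region at chr11:49791636-49856222 (64587 bp) joined Gfpt2 with Mapk9, a stress kinase. At chr15:79345514-79405145 lay Maff, a small Maf factor. Nr4a1, a nuclear receptor induced within minutes of stimulation, lay with Atg101 and Smim41 at chr15:101243327-101302219 (58893 bp). Irs2, which couples the insulin receptor to its kinases, had 52749 bp at chr8:10959244-11011992, and Baiap2, an actin adaptor, 59629 bp at chr11:119940983-120000611. At chr7:25183007-25243720 (60714 bp) lay Gsk3a, a kinase that inhibits glycogen synthase, with Dedd2, Zfp526 and the ETS repressor Erf.

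Other wide members followed gene structure or gene clusters. The region at chr19:5785814-5853347 (67534 bp) held the nuclear noncoding RNAs Malat1 and Neat1, and all 9 lists covered between 91.4 and 96.3% of it. The tables list Gm37376, whose span lies inside that of Malat1 in RefSeq, at 18770 ± 7575 TPM in WT 3W libraries (SD, n = 7), and these values cannot be separated from reads of Malat1. Ahnak, a very large scaffold protein gene, had 56690 bp at chr19:8980544-9037233, covered by 86.7 to 97.7% in every list. The Hoxa region at chr6:52156162-52223613 (67452 bp) held Hoxa3, Hoxa5, Hoxa6 and Hoxa7. Its coverage was 66596 and 49450 bp in KO 3W libraries and 62822, 51285 and 42271 bp in WT 3W libraries. Fbn1, which encodes the microfibril protein fibrillin-1, had 10 wide regions, the widest of 59418 bp at chr2:125266675-125326092. That region was covered over 59418 and 51627 bp in WT 1W HFD libraries and 44487 and 53010 bp in WT 12W HFD libraries, against 29551, 35536 and 26896 bp in WT 3W libraries.

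The weakest of the 15 widest members was the imprinted region at chr12:109545557-109604388 (58832 bp), which held Rtl1, the noncoding RNAs Meg3 and Rian, and 16 miRNA hairpins. Its strongest peaks had folds between 7.26 and 20.5, below the lowest fold of 26.0 in the other 14. Coverage ranged from 39.9% in a WT 12W HFD list to 100.0% in a WT 1W HFD list. This was the lowest coverage in any list among the 15. Rtl1 averaged 0.252 ± 0.202 TPM in KO 3W libraries (SD, n = 5) and 0.309 ± 0.375 TPM in WT 3W libraries (SD, n = 7). The remaining member of the 15, at chr11:106735680-106790588 (54909 bp), ran over Ddx5, an RNA helicase, with Polg2, Cep95, Milr1 and part of the Pecam1 span. Pecam1 is an endothelial adhesion gene. Its span in the RNA tables reaches into this region, but RefSeq places neither its span nor its start there.

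Genes were linked to regions by overlap of the gene span. A gene of the RNA tables overlapped 5243 wide regions (86.3%), against 66.2% of narrower ones, and 1138 wide regions overlapped at least 2 genes. A RefSeq start window lay in 2817 wide regions (46.4%) and in 28.1% of narrower ones. Per Mb, however, wide regions held 83.2 starts and narrower ones 138.9. The share with a start was 40.9% below 6000 bp and 71.0% from 20000 bp. In the 1760 wide regions with exactly 1 start, the region reached a median of 2206 bp upstream of the start and 4489 bp downstream, and the downstream side was the longer in 75.6%. The other 3259 wide regions held no annotated start. Of all members, 833 overlapped no gene of the tables and 517 no RefSeq gene. The widest members with neither kind of gene were at chr6:31064857-31084677 (19821 bp), next to the miR-29a and miR-29b-1 region, and at chr15:85675263-85691681 (16419 bp), next to the let-7b region.

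In the RNA tables, 4874 of 25746 genes (18.9%) overlapped a wide region, and 1078 of them overlapped at least 2. Gm20388, a predicted gene whose span is several megabases, overlapped 54, and Fgfr2 and Fndc3b overlapped 16 each. Of the 4874, 4483 reached 1 TPM in at least 2 libraries and were tested, and the other 391 were not. Genes at wide regions had a median level of 12.8 TPM in the middle WT 3W library, with 10.9 to 14.1 TPM over the 7 libraries. Genes with narrower regions only had 6.85 TPM, with 5.82 to 7.91 TPM over libraries, and the median of genes with neither was 0 TPM. The library ranges of the first 2 classes did not overlap. The median rose with the width of the widest region, and was 10.5 TPM at 5000 to 6000 bp, 11.2 at 6000 to 8000 bp, 12.3 at 8000 to 10000 bp, 18.7 at 10000 to 20000 bp and 27.9 TPM from 20000 bp. Across genes, width and mean WT 3W level had a Spearman correlation of 0.145 over 4874 genes, and 0.168 over the 2803 genes linked by their start. Genes that share a region share its width, so the points are not independent.

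Of the gene lists compiled for this tissue, with earlier results of these data known, the regulators that respond quickly stood most completely in wide regions by gene span. All 56 immediate early and AP-1 genes overlapped one, with a median widest region of 18531 bp, where 18.9% of all genes in the tables did. By gene start, 40 of the 56 lay in one, and 31 of 37 broadly expressed structural and nuclear RNA genes. Overlap also went with level. Among tested genes, 1727 of 8048 with a mean under 10 TPM overlapped a wide region, and 833 of 1675 from 100 TPM. The share of a list beyond that of genes of like level was not tested. Fos lay in 23602 bp at chr12:85470234-85493835, covered over 21126 and 18512 bp in KO 3W libraries and 19996, 18231 and 19791 bp in WT 3W libraries. Junb, another AP-1 subunit, lay in 32459 bp and Dusp1, a phosphatase of MAP kinases, in 30765 bp. Of broadly expressed structural and nuclear RNA genes 36 of 37 were at wide regions, as were 30 of 33 matrix enzymes and inhibitors, 43 of 50 collagens and matrix proteins, 71 of 85 signalling genes and 21 of 26 adipogenic regulators. Of transcription factors of mesenchyme 60 of 85 were, of chemokines and cytokines 22 of 31, and of Dpp4-type progenitor markers, which mark an early adipose progenitor, 12 of 18. Hox genes overlapped wide regions in 25 of 39 cases. Their median widest region was 23940 bp, the longest of the lists with at least 5 members at wide regions, and their median level in WT 3W libraries was 6.40 TPM, against 141 TPM for the immediate early list.

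For lists of other cell types the counts stand beside the same 18.9% of all genes and 28.6% of tested genes. Of 20 macrophage genes 4 overlapped one (Cd68, Csf1r, Cx3cr1 and Fcer1g), of 14 lymphocyte genes 1, of 15 endothelial genes 2, of 12 mesothelial genes 2 and of 18 adipocyte lipid storage genes 6. Overlap does not show that the gene's own elements are open. Cd68 lies in a 21335-bp region with Eif4a1, Mpdu1 and Senp3, and the region of Lpxn also held the start of Zfp91. In bulk libraries, fewer cells of a type and less RNA per cell cannot be told apart.

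The comparison of KO 3W with WT 3W sets libraries titled as Tcf21 knockout beside wild-type ones at 3 weeks. Tcf21 itself lay in a 6551-bp region at chr10:22817619-22824169. Peaks covered 6136 and 4885 bp of it in KO 3W libraries and 5259, 4972 and 4337 bp in WT 3W libraries. Its RNA was 20.01, 60.9, 21.9, 48.2 and 25.1 TPM in KO 3W libraries, and in WT 3W libraries it had a lowest value of 37.6, a median of 47.6 and a highest value of 109 TPM. The groups overlapped. KO 3W values of 20.01, 21.9 and 25.1 TPM lay below the lowest WT 3W value, and 48.2 and 60.9 TPM within the WT 3W range. The log2 change was -0.91 (SE 0.35, adjusted p = 1) by limma, in a fit that did not use the title pairs. Paired KO and WT libraries deviated together by more than a correlation of 0.1 in 5 of 6 title pairs, so this SE includes spread that pairs share. By its adjusted p, Tcf21 was not called lower among 15659 genes. That adjustment is made over all tested genes and does not measure the spread of Tcf21 alone. Since the genotype field calls every one of these KO libraries wild type, the direction of the comparison rests on the titles. Log2 changes here are on the log2(TPM + 1) scale, with the spread estimated over 29 libraries and p-values adjusted over 15659 genes. None of the 4483 tested genes at wide regions passed an adjusted p of 0.05 (0 higher, 0 lower, 0.0% of all tested genes called). This count was 0 under each of 20 alternatives. At an unadjusted p under 0.05 there were 145 of them (3.23%), beside 3.49% of all tested genes. The KO 3W and WT 3W values come from separate tables, each scaled within libraries. The 5 KO 3W libraries held 138 to 1005 TPM of the summed 20 macrophage genes and the 7 WT 3W libraries 59.5 to 357 TPM, and their part in the result was not tested.

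Between WT 1W HFD and WT 3W libraries, 316 genes at wide regions were higher and 150 lower, 10.4% of 4483, where 8.03% of all tested genes were called. The share called higher was 7.05% at wide regions and 4.78% of all tested genes, and the share called lower was 3.35% at wide regions and 3.25% of all tested genes. Level differs between these sets, and the excess over all tested genes was seen at higher levels. Among genes with a mean under 10 TPM, 4.81% at wide regions and 4.97% of all were called. Between 10 and 100 TPM the shares were 11.8% and 9.96%, and from 100 TPM 18.8% and 15.9%. At the same levels, genes with narrower regions only were called in 4.64, 8.31 and 12.3% of cases. Genes with no region open in every list were called in 5.83% of 1990, 23.1% of 212 and 22.6% of 53 cases. From 10 TPM, the excess was thus not particular to wide regions. Width within the wide regions made little difference, with 9.6 to 11.5% called over 5 width classes. Fitted on the libraries of the 2 groups alone, 160 were higher and 93 lower (5.64%), beside 4.66% of all tested genes. Leaving out single libraries moved the total of higher and lower calls to between 245 and 583. With regions defined over the other 8 lists, without the first WT 1W HFD list, 419 of 3863 genes (10.8%) were called. The lowest counts when 1 RNA library was left out were 245 without WT 1W HFD replicate 3 and 251 without replicate 4.

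Uap1, Pdlim1, Cd55, Il34 and Medag had the smallest adjusted p among genes at wide regions that rose after 1 week. Uap1 had 415, 492, 588 and 500.0 TPM in WT 1W HFD libraries, against a lowest value of 87.3, a median of 104 and a highest value of 215 TPM in WT 3W libraries. All 4 WT 1W HFD libraries lay above all WT 3W libraries, with a log2 change of 2.11 (SE 0.23, adjusted p = 1.75e-06). Its start lay in a 30091-bp region at chr1:170151256-170181346, covered over 29659 and 26991 bp in WT 1W HFD libraries, against 10612, 17842 and 12525 bp in WT 3W libraries. Gfpt2 of the same pathway had 669, 800.1, 585 and 905 TPM, against a lowest value of 142, a median of 299.5 and a highest value of 512 TPM in WT 3W libraries. This was again without overlap, with a log2 change of 1.34 (SE 0.29, adjusted p = 0.004), and an adjusted p of 0.0506 with the 2 groups fitted alone. Cd55, a complement regulator and a Dpp4-type progenitor marker, averaged 674 ± 105 TPM in WT 1W HFD libraries (SD, n = 4) and 182 ± 68.0 TPM in WT 3W libraries (SD, n = 7), a log2 change of 1.96 (SE 0.26, adjusted p = 3.83e-05). Il34, a ligand of the macrophage growth factor receptor Csf1r, had 10.8, 22.7, 60.1 and 47.3 TPM, against a lowest value of 0.06, a median of 2.33 and a highest value of 8.39 TPM in WT 3W libraries. All 4 values lay above the WT 3W range, with a log2 change of 3.42 (SE 0.47, adjusted p = 5.67e-05). Pdlim1, a PDZ and LIM domain adaptor of the cytoskeleton, and Medag, a gene linked to adipocyte differentiation, rose with log2 changes of 2.36 (adjusted p = 2.94e-05) and 1.85 (adjusted p = 5.67e-05). The Medag region at chr5:149408225-149433062 was covered over 24552 and 22624 bp in WT 1W HFD libraries, against 9684, 9511 and 8811 bp in WT 3W libraries.

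Igfbp3, Mdk, Igf2, Peg3 and Ptov1 had the smallest adjusted p among those that fell. Igfbp3, which binds insulin-like growth factors, had 42.6, 63.1, 13.9 and 27.1 TPM in WT 1W HFD libraries, against a lowest value of 322, a median of 1010 and a highest value of 1750 TPM in WT 3W libraries. The groups did not overlap, with a log2 change of -4.96 (SE 0.56, adjusted p = 3.83e-06). Mdk, the heparin-binding growth factor midkine, had 44.7, 59.3, 32.4 and 33.9 TPM, against a lowest value of 198, a median of 492 and a highest value of 778 TPM in WT 3W libraries. All 4 values lay below the WT 3W range, with a log2 change of -3.47 (SE 0.33, adjusted p = 2.71e-07). Igf2, the imprinted insulin-like growth factor, averaged 7.79 ± 2.34 TPM in WT 1W HFD libraries (SD, n = 4) and 112 ± 84.6 TPM in WT 3W libraries (SD, n = 7), a log2 change of -3.42 (SE 0.46, adjusted p = 5.67e-05). Peg3, an imprinted zinc finger gene, fell with a log2 change of -2.53 (adjusted p = 3.82e-05) and Ptov1 with -1.81 (adjusted p = 5.67e-05). The Igfbp3 region had 6294 and 4954 bp covered in WT 1W HFD libraries, against 6644, 5881 and 4883 bp in WT 3W libraries, and the Mdk region 6691 and 4137 bp, against 5806, 2621 and 3246 bp.

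By list, 9 of the 12 tested Dpp4-type markers at wide regions rose after 1 week and 0 fell, with a median log2 change of 1.90. Of all tested genes 4.78% rose and 3.25% fell, with a median of 0.015. Pi16 did not pass the test, with a log2 change of 1.57 (adjusted p = 0.0832). It averaged 1544 ± 314 TPM in WT 1W HFD libraries (SD, n = 4) and 683 ± 427 TPM in WT 3W libraries (SD, n = 7). With a replicate block its adjusted p was 0.0309. Same-numbered libraries of these groups deviated together by more than a correlation of 0.1 in 0 of 4 pairs, so that pass is not counted. Of 43 collagens and matrix proteins 7 rose and 2 fell, and of 30 matrix enzymes 4 rose and 0 fell. Fbn1 was among the genes that rose, at 428 ± 136 TPM in WT 1W HFD libraries (SD, n = 4) and 164 ± 69.8 TPM in WT 3W libraries (SD, n = 7), log2 change 1.45 (adjusted p = 0.00394). Of 71 signalling genes 2 rose and 8 fell. Immediate early genes gave 2 higher and 2 lower of 56, and mesenchyme transcription factors 5 higher and 2 lower of 58. Of 22 chemokine and cytokine genes 3 rose and 0 fell. The summed endothelial list of 15 genes was 186 to 566 TPM in WT 1W HFD libraries and 47.9 to 94.2 TPM in WT 3W libraries, with none of its genes at 0 in all libraries of either group, and its part in these results was not tested. The same holds for the 20 macrophage genes, which summed to 869 to 1236 TPM in WT 1W HFD libraries and 59.5 to 357 TPM in WT 3W libraries.

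Between WT 12W HFD and WT 3W libraries, 322 genes at wide regions were higher and 407 lower, 16.3% of 4483, where 14.2% of all tested genes were called. Higher calls took 7.18% at wide regions and 7.94% of all tested genes, and lower calls 9.08% at wide regions and 6.23% of all tested genes. With libraries scaled by the median ratio of their genes, 376 were higher and 334 lower, so which direction held more genes depended on the scaling, and it also turned without WT 12W HFD replicate 2 (305 higher, 301 lower). With regions defined without the first WT 1W HFD list, 281 of 3863 were higher and 369 lower. Genes with no region open in every list were called higher in 444 cases of 2255 and lower in 66. By mean level, 9.79% of wide-region genes and 12.0% of all were called under 10 TPM. The shares were 18.05% and 14.98% between 10 and 100 TPM, and 25.6% and 21.7% from 100 TPM. At the same levels, genes with narrower regions only were called in 10.2, 10.9 and 15.7% of cases. Genes with no region open in every list were called in 17.9, 59.4 and 50.9% of cases, more often than wide-region genes at each level.

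**Figure D3:**
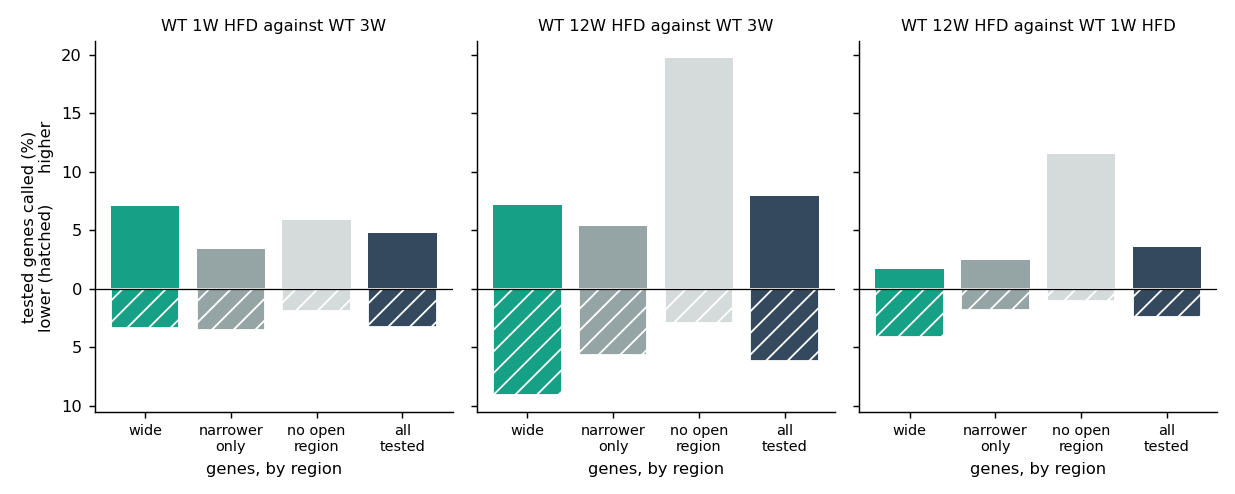
Share of tested genes called at an adjusted p under 0.05 (%, higher above the zero line and lower hatched below it) by the kind of region the gene overlaps, 1 panel per comparison. Genes at wide regions were called higher in 7.05% and lower in 3.35% after 1 week, and called higher in 7.18% and lower in 9.08% after 12 weeks, each against WT 3W.

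Cd68, Lgmn, Fcer1g, Lpxn and Pirb had the smallest adjusted p among genes at wide regions that rose after 12 weeks. Cd68, a lysosomal glycoprotein of macrophages, had 668, 360.5, 653, 774 and 242 TPM in WT 12W HFD libraries, against a lowest value of 1.61, a median of 9.68 and a highest value of 17.9 TPM in WT 3W libraries. All 5 values lay above the WT 3W range, with a log2 change of 5.85 (SE 0.33, adjusted p = 7.63e-13). Lgmn, a lysosomal protease, averaged 735 ± 376 TPM in WT 12W HFD libraries (SD, n = 5) and 82.4 ± 26.5 TPM in WT 3W libraries (SD, n = 7), a log2 change of 3.08 (SE 0.25, adjusted p = 3.51e-10). Its 5338-bp region at chr12:102436208-102441545 was covered over 5119 and 4228 bp in WT 12W HFD libraries, against 1438, 1536 and 1345 bp in WT 3W libraries. Fcer1g, the signalling chain of Fc receptors, Lpxn, a leukocyte adhesion adaptor, and Pirb, an inhibitory receptor, rose with log2 changes of 5.85 (adjusted p = 2.13e-09), 4.16 (adjusted p = 1.64e-09) and 4.08 (adjusted p = 2.17e-09). Pirb belongs to a family of near-identical genes, so its value is uncertain. The Cd68 region did not widen with the RNA, at 13313 and 12848 bp covered in WT 12W HFD libraries, against 15854, 16062 and 15062 bp in WT 3W libraries. The Pirb region had 1360 and 824 bp, against 3294, 4219 and 2531 bp. The sum of the 20 macrophage genes was 4843 to 15143 TPM in WT 12W HFD libraries and 59.5 to 357 TPM in WT 3W libraries, with no gene at 0 in all libraries of either group, and its part in these results was not tested.

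Igf2, Esr1, Wfdc1, Matn2 and Peg3 had the smallest adjusted p among those that fell after 12 weeks. Igf2 had 0, 0, 0, 1.10 and 0.1 TPM in WT 12W HFD libraries, against a lowest value of 46.9, a median of 63.7 and a highest value of 277 TPM in WT 3W libraries. All 5 values were near or at 0 and below every WT 3W value, with a log2 change of -6.28 (SE 0.43, adjusted p = 1.76e-11). Its 6743-bp region at chr7:142654706-142661448 was covered over 1762 and 480 bp in WT 12W HFD libraries, against 6585, 3244 and 2992 bp in WT 3W libraries. Esr1, the oestrogen receptor alpha, had 7.70, 14.2, 15.8, 9.47 and 12.8 TPM, against a lowest value of 35.8, a median of 53.6 and a highest value of 59.8 TPM in WT 3W libraries. The groups did not overlap, with a log2 change of -1.97 (SE 0.21, adjusted p = 4.58e-08). Wfdc1, a secreted protein with a protease inhibitor domain, Matn2, a matrix adaptor protein with 5 wide regions, and Peg3 fell with log2 changes of -3.78 (adjusted p = 1.22e-10), -2.21 (adjusted p = 2.98e-09) and -2.88 (adjusted p = 4.81e-08). Sparc, a collagen-binding matrix protein, averaged 4602 TPM in WT 12W HFD libraries and 12180 TPM in WT 3W libraries, a log2 change of -1.43 (SE 0.26, adjusted p = 0.000184). Plpp3 averaged 262 ± 42.0 TPM in WT 12W HFD libraries (SD, n = 5) and 444 ± 83.2 TPM in WT 3W libraries (SD, n = 7), log2 change -0.75 (adjusted p = 0.000725). Hoxa5 averaged 12.7 ± 3.13 TPM in WT 12W HFD libraries (SD, n = 5) and 32.8 ± 11.2 TPM in WT 3W libraries (SD, n = 7), log2 change -1.26 (adjusted p = 0.000165). Tcf21 averaged 9.37 ± 2.98 TPM in WT 12W HFD libraries (SD, n = 5) and 64.9 ± 27.0 TPM in WT 3W libraries (SD, n = 7), log2 change -2.62 (adjusted p = 2.91e-06).

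By list, counts after 12 weeks are to be read beside the 7.94% of all tested genes called higher and the 6.23% called lower. Of 71 signalling genes 19 fell and 2 rose (median log2 change -0.28), of 56 immediate early genes 11 fell and 3 rose (-0.61), and of 24 Hox genes 5 fell and 1 rose (-0.64), where the median of all tested genes was -0.035. Collagens and matrix proteins gave 12 lower and 4 higher of 43, and mesenchyme transcription factors 9 lower and 4 higher of 58. Adipogenic regulators gave 5 lower and 0 higher of 21. Chemokines and cytokines went the other way, with 6 higher and 1 lower of 22, and 4 of 12 Dpp4-type markers rose and 0 fell. Broadly expressed genes gave 4 higher and 1 lower of 36, and chromatin regulators 0 higher and 2 lower of 25. With libraries scaled by the median ratio, 7 of the broadly expressed genes were called higher and 1 lower. In the other lists named here each count moved by at most 2, and no list turned its direction. The summed mesothelial list of 12 genes was 50.02 to 87.8 TPM in WT 12W HFD libraries and 204 to 324 TPM in WT 3W libraries, with 1 gene at 0 in all libraries of each group, and its part was not tested. The 14 lymphocyte genes summed to 35.6 to 275 TPM in WT 12W HFD libraries and 2.08 to 11.9 TPM in WT 3W libraries, with 0 and 3 genes at 0 in all libraries of these groups, and their part was not tested either.

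Between the diet durations, WT 12W HFD against WT 1W HFD, 75 genes at wide regions were higher and 184 lower, 5.78% of 4483, where 5.93% of all tested genes were called. Higher calls were 1.67% at wide regions and 3.54% of all tested genes, and lower calls 4.10% at wide regions and 2.39% of all tested genes. The median log2 change was -0.156 at wide regions and -0.054 over all tested genes. Of the called genes 28.96% were higher, and 43.0% (95 higher, 126 lower) with libraries scaled by the median ratio. The share of genes at wide regions called was thus close to the share of all tested genes, and it was 6.03% of 3863 with regions defined without the first WT 1W HFD list. Cd34, a surface marker of adipose progenitors, had 633, 458, 601, 667 and 749 TPM in WT 12W HFD libraries, against 1526, 1718, 1595 and 1444 TPM in WT 1W HFD libraries. The groups did not overlap, with a log2 change of -1.35 (SE 0.18, adjusted p = 7.55e-06). Cp, the copper ferroxidase ceruloplasmin, fell with a log2 change of -1.80 (adjusted p = 2.26e-05). Pmp22, a membrane protein of myelin and fibroblasts, fell with -1.19 (adjusted p = 2.78e-05). The kinase gene Dapk2 fell with -1.995 (adjusted p = 2.36e-05) and Ppp2r2b with -3.09 (adjusted p = 2.19e-05). Mdk, low after 1 week, had 278, 515, 559.8, 294 and 252 TPM in WT 12W HFD libraries, against 44.7, 59.3, 32.4 and 33.9 TPM in WT 1W HFD libraries. All 5 values lay above the WT 1W HFD range, with a log2 change of 3.09 (SE 0.35, adjusted p = 1.12e-06). Tnip3, an inhibitor of NF-kB signalling, rose with a log2 change of 4.13 (adjusted p = 4.77e-06), as did Cd68 with 4.07 (adjusted p = 4.15e-08), Lpxn with 3.93 (adjusted p = 3.44e-07) and Pirb with 3.52 (adjusted p = 2.03e-06). By list, 9 of 43 collagens and matrix proteins, 7 of 71 signalling genes, 6 of 58 mesenchyme transcription factors and 6 of 12 Dpp4-type markers fell, with 0, 0, 1 and 0 higher. With libraries scaled by the median ratio, 6, 4, 4 and 4 genes of these lists fell and 0, 1, 1 and 0 rose, where 2.39% of all tested genes fell without that scaling and 1.69% with it. The sum of the 20 macrophage genes was 4843 to 15143 TPM in WT 12W HFD libraries and 869 to 1236 TPM in WT 1W HFD libraries. The 14 lymphocyte genes summed to 35.6 to 275 TPM in WT 12W HFD libraries and 3.47 to 24.2 TPM in WT 1W HFD libraries, with 0 and 3 genes at 0 in all libraries of these groups. The 12 mesothelial genes summed to 50.02 to 87.8 TPM in WT 12W HFD libraries and 138 to 225 TPM in WT 1W HFD libraries, with 1 and 2 genes at 0. The part of these lists in the comparison was not tested.

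**Figure D4:**
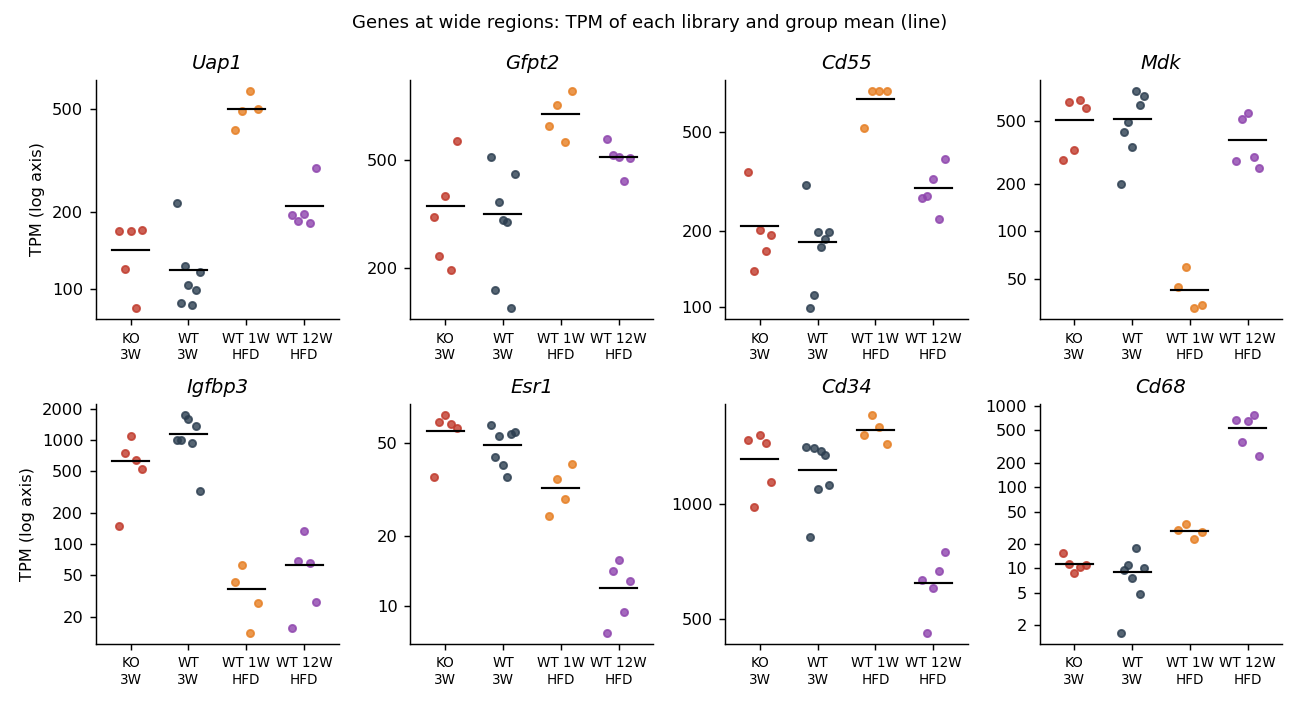
TPM of 8 genes at wide regions in each RNA library (points, log axis) with the group mean (line), for KO 3W (5 libraries), WT 3W (7), WT 1W HFD (4) and WT 12W HFD (5). The 4 WT 1W HFD libraries lie above all WT 3W libraries for Uap1, Gfpt2 and Cd55 and below them for Mdk and Igfbp3, and the 5 WT 12W HFD libraries lie below them for Esr1 and above them for Cd68.

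The peak lists allow the openness of wide regions to be set beside the RNA of their genes, as a description. At genes that rose after 1 week (489 regions), a median of 95.4 and 82.5% of the region was covered in WT 1W HFD libraries, against 51.7, 48.8 and 38.8% in WT 3W libraries. At genes that fell (203 regions), coverage was 91.5 and 77.9% in WT 1W HFD libraries, against 78.2, 63.4 and 54.6% in WT 3W libraries. Over all 5079 regions of tested genes it was 93.6 and 79.4% in WT 1W HFD libraries and 64.8, 56.5 and 47.4% in WT 3W libraries. In the KO 3W libraries, which this comparison did not use, coverage of the same regions was 73.3 and 52.5% at genes that rose and 86.0 and 68.2% at genes that fell. Regions of rising genes were filled less than those of falling genes in each of the 5 lists of 3-week mice, and more in both WT 1W HFD lists. The same lists chose the regions and set their widths, and the first WT 1W HFD list held the widest peak in 58.4% of wide regions. A region that is wide mainly in that list is by the rule filled more there than elsewhere. Coverage of regions defined without that list was not computed.

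At genes that rose after 12 weeks (408 regions), the median coverage was 71.3 and 84.0% in WT 12W HFD libraries, against 56.9, 50.3 and 41.9% in WT 3W libraries. At genes that fell (569 regions), it was 63.5 and 70.1% in WT 12W HFD libraries, against 74.4, 63.3 and 53.9% in WT 3W libraries. Over all regions of tested genes it was 66.2 and 76.0% in WT 12W HFD libraries. In the KO 3W libraries it was 74.1 and 53.4% at genes that rose and 84.1 and 65.5% at genes that fell. Within the lists whose peak names carry the letter A, the only WT 3W list gave 56.9% at genes that rose and 74.4% at genes that fell. The lists that chose the regions also give these coverage values. A peak in a list depends on depth as well as on openness, and both RNA comparisons share the WT 3W libraries, so no test is given.

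**Figure D5:**
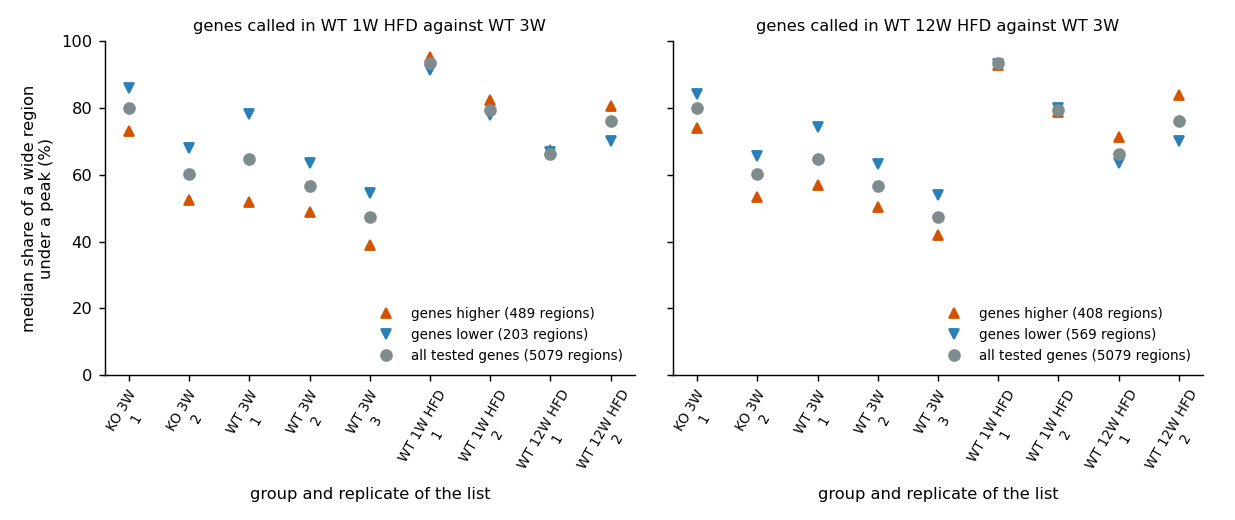
Median share of a wide region under a peak (%) in each of the 9 lists, for regions of genes called higher (triangles up), called lower (triangles down) and of all tested genes (circles), after 1 week (left) and 12 weeks (right) against WT 3W. In the 3 WT 3W lists the regions of genes that rose lie below those of genes that fell, by 51.7 against 78.2% in the first list for the 1-week calls. The 9 lists also set which regions are wide.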

How the data were processed

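Open chromatin was measured by ATAC-seq in 9 libraries and RNA by RNA-seq in 29, all from 5000 sorted cells. The RNA values are TPM per gene as deposited by the authors, 1 table of WT and 1 of KO libraries with the same 25746 genes, and column sums of 918008 to 969385. Library depth is unknown, so precision comes from the spread between libraries. The deposited peak lists give each peak a score, a fold enrichment (a ratio) and −log10 p and q values, as written by the peak caller, and the weakest peak of each list had a −log10 q of 1.36 to 1.96. The score was the whole part of 10 times −log10 q in all 9 lists. Peaks were called per library, since each list belongs to 1 sample. The submitters' processing notes name Trim Galore 0.6, FastQC, STAR 2.5.3a, RSEM, Bowtie2 2.3, MACS2 and mm10, without the step each served. Counting strand, read shifting and blacklisted regions are not given in the sources used here, and overlapping or near-identical genes may share reads.

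Peaks of all 9 lists were merged at 1 bp overlap, and regions in all 9 lists of at least 5000 bp were kept. Genes were linked by gene span, with the gene start as an alternative. TPM values were analysed as log2(TPM + 1), which understates the change of low genes, for genes at 1 TPM in at least 2 libraries. limma 3.58.1 in R 4.3.3 fitted 8 group means over all 29 libraries with 21 residual degrees of freedom and a trend in the prior variance. P-values were adjusted by Benjamini-Hochberg over 15659 genes at 0.05, and they measure only the spread between these libraries, which may be technical. The code was tested on simulated data. RefSeq promoter and miRNA tables (GRCm38.p6) were matched by gene and position. Python 3.11.15 with pandas 2.3.3 and numpy 2.4.6 was used.

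The members, gene lists and tests were chosen with earlier results of these data known. Genes named were those at the 15 widest regions, the 5 with the smallest adjusted p per direction and comparison, the 3 most abundant of each list, Tcf21 and Pdgfra, and regions named were also the 3 on each side of the width limit and, chosen after their values were seen, those with the highest folds and those without a gene.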

Additional observations from a re-analysis of the deposited data

Results flagged for a closer look

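In 11 of 104 pairs of a named gene and a group (10.6%), 1 library lay far from the others of its group, where chance gives about 1 in 20. In KO 3W replicate 1, Nr4a1 was at 81.6 TPM, against 1060 to 2129 TPM in the other 4 libraries, Hoxa5 at 22.1 TPM, against 29.2 to 32.7 TPM, and Esr1 at 35.7 TPM, against 57.7 to 65.8 TPM. In WT 3W replicate 1, Uap1 was at 215 TPM, against 87.3 to 123 TPM in the other 6, and Ahnak at 109 TPM, against 55.8 to 69.9 TPM. Igfbp3 was at 322 TPM in WT 3W replicate 7, against 939.7 to 1750 TPM. In WT 1W HFD libraries, Cd55 was at 516 TPM in replicate 1, against 724 to 729 TPM, and Sparc at 8719 TPM in replicate 4, against 12849 to 13191 TPM. In WT 12W HFD libraries, Uap1 was at 295 TPM in replicate 5, against 181 to 197 TPM, Igf2 at 1.10 TPM in replicate 4, against 0 to 0.1 TPM, and Peg3 at 6.91 TPM in replicate 1, against 16.8 to 22.6 TPM.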

How the results depend on the processing

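The number of wide regions was 9734 with a limit of 4000 bp and 2101 with 8000 bp. It stayed within 1.5 times of 6076 at 5522 with a −log10 q of at least 5 and at 6023 with 100 bp of overlap, and ranged from 5020 to 6145 when 1 list was left out. Linked by gene start instead of span, the genes called numbered 290 of 2688 (WT 1W HFD against WT 3W), 440 (WT 12W HFD against WT 3W) and 149 (WT 12W HFD against WT 1W HFD), because fewer genes were linked. Fitted on the libraries of the 2 groups alone, 253 genes were called for WT 1W HFD against WT 3W, where fewer samples set the spread. Leaving out 1 library gave 245 to 583, 553 to 777 and 174 to 303 genes in the same order of comparisons, and 0 for KO 3W against WT 3W. The share of wide-region genes called stayed above that of all tested genes in all 19 alternatives for WT 1W HFD against WT 3W and in all 20 for WT 12W HFD against WT 3W, and lay above it in 4 of 17 for WT 12W HFD against WT 1W HFD. Of 38 pairs of a named gene and a comparison, those with the smallest adjusted p and 8 others named above, 36 kept their call in every alternative and none changed direction. Gfpt2 after 1 week missed the threshold with the 2 groups alone, and Pi16 passed it with the replicate block. The counts by list under median-ratio scaling and the values of these 8 pairs were added after seeing the data. With a replicate block, 365, 674 and 221 genes were called for the 3 diet comparisons and 0 for KO 3W. Paired libraries deviated together by more than a correlation of 0.1 in 5 of 6 title pairs of KO 3W and WT 3W (lowest -0.13, highest 0.48). Most of these title pairs thus went together. The main fit left them out because the titles do not say what a pair shares, and they entered only through the block. For the other comparisons, same-numbered libraries did so in 0 of 4, 1 of 5 and 0 of 4 pairs, so replicate numbers were not taken to pair samples. Depth is unknown, which limits what the coverage values show.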

Other observations

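The RNA tables also hold 2 wild-type libraries of 6 months of age and 2 of postnatal day 12 (P12), all on regular diet, and 2 libraries labelled KO of each diet duration, which stood on neither side of a comparison above but entered the estimate of spread. In the 6-month libraries several genes at wide regions had values within or near those of the high-fat diet groups without that diet. Igf2 was at 0.14 and 1.73 TPM at 6 months and at 517 and 253 TPM at P12, with a mean of 112 TPM at 3 weeks. Igfbp3 was at 32.4 and 12.9 TPM at 6 months and 467 and 399 TPM at P12, Peg3 at 9.67 and 2.99 TPM and at 149 and 137 TPM, and Esr1 at 16.2 and 16.7 TPM and at 55.6 and 41.7 TPM. Uap1 was at 322 and 447 TPM at 6 months, Gfpt2 at 750.5 and 664 TPM and Cd55 at 444 and 604 TPM, while P12 libraries had 135 and 82.0, 131 and 126, and 247 and 196 TPM of these genes. Mdk was at 302 and 138 TPM at 6 months, above its range of 32.4 to 59.3 TPM in WT 1W HFD libraries. Cd68 was at 108 and 122 TPM at 6 months, and the summed macrophage list was 4354 and 9555 TPM.

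In the libraries labelled KO after 1 week of high-fat diet, Mdk was at 48.6 and 28.3 TPM, Igfbp3 at 60.4 and 9.35 TPM and Uap1 at 336 and 424 TPM. In those labelled KO after 12 weeks, Cd68 was at 206 and 398 TPM, Cd34 at 487 and 548 TPM and Esr1 at 15.4 and 6.99 TPM. No test was run on these groups.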
